A study of Mus musculus with 13 samples.

Results

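The transcripts of 9 enzymes were followed in mouse liver: Sardh, Dmgdh and Pipox, which oxidize sarcosine and dimethylglycine, and Shmt1, Shmt2, Mthfd1, Mthfd2, Aldh1l1 and Ftcd, which load, carry or release folate-bound one-carbon units. The members were named by function, as users of the GNMT product sarcosine or carriers of folate one-carbon units, with earlier results of these data known. All 9 had a row in each count table, out of 23785 genes listed there in all, and all 9 passed the filter on low counts in every comparison. Liver RNA came from 13 C57 mice aged 3 months, in 3 groups. The no BDL group held 5 mice labelled as non treated. The miR-Ctrl BDL group held 4 mice with bile duct ligation (BDL), an operation that blocks bile flow and gives cholestasis, injected with a control oligonucleotide. The anti-miR-873-5p BDL group held 4 mice with the same operation, injected with an inhibitor of miR-873-5p. Per the methods of the study, both oligonucleotides were given intravenously at 60 µg per mouse on days 3 and 5 after surgery, and livers were taken on day 7. Both BDL groups therefore share surgery, ligation and injection. The labels of the no BDL mice give no ligation and no treatment and do not say whether they had any other surgery, so surgery, ligation and injection cannot be told apart in a comparison with them.

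GNMT, the glycine N-methyltransferase of hepatocytes, uses S-adenosylmethionine to methylate glycine and so makes sarcosine. In mitochondria, dimethylglycine dehydrogenase (Dmgdh) converts dimethylglycine, a product of choline breakdown, to sarcosine, and sarcosine dehydrogenase (Sardh) converts sarcosine to glycine. Both pass the methyl carbon to tetrahydrofolate, and the folate enzymes then move that carbon between serine, glycine, formate and the methyl, methylene and formyl forms of folate that feed methionine and nucleotide synthesis.

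Sequences of 3 kinds are described as background to the comparisons, and none was tested against the changes between groups. The first is the microRNA whose inhibitor separates the BDL groups, mmu-miR-873a-5p in RefSeq (GRCm38.p6, chr4:36668556-36668576, minus strand), with its seed, bases 2 to 8, in capitals. The 7 bases that pair with this seed, or the 6 that pair with bases 2 to 7 followed by A, occurred in none of the 3′ UTRs of the members, taking for each gene its longest transcript with an annotated 3′ UTR in GENCODE M21. Among 21020 genes searched in the same way, 24.8% held such a match. The search also found 0 matches in the 3′ UTR of Gnmt, 136 bases long. The study reports Gnmt as a target from target prediction and from a reporter assay of a Gnmt 3′ UTR taken from a cDNA clone. It also reports that a mimic of the microRNA lowered GNMT mRNA and protein in cultured hepatocytes. The cloned sequence was not searched here. The absence of a match says only that these letters are not in these windows.
mmu-miR-873a-5p: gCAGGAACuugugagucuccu

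The second kind is promoters, 250 bases before to 50 after the start in RefSeq (GRCm38.p6), for members that differed in the motifs they held. For Mthfd2, Sardh and Mthfd1 this window lies inside the gene coordinates given below. The start used for them is thus not the outermost end of the gene. Both strands were searched for CCAAT (in 37.4% of 32851 promoters), CACGTG (7.15%), TATAAA (13.6%), TGATGNAA (3.97%) and CAAAGTCCA (0.475%), and matches are in capitals. The Mthfd2 promoter held CCAAT at 3 places, that of Ftcd held TATAAA, and that of Pipox held CAAAGTCCA on the opposite strand. CCAAT was also in the promoters of Shmt1, Mthfd1 and Aldh1l1. Those of Sardh, Dmgdh and Shmt2 held none of the motifs. A match is a description of the sequence and not a site of binding.
Pipox promoter, chr11:77893823-77894122, minus strand: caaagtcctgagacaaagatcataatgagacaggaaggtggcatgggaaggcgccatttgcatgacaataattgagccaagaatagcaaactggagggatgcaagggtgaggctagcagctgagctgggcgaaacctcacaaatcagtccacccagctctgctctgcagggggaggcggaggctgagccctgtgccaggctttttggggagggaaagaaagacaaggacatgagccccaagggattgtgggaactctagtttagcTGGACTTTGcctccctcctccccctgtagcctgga
Ftcd promoter, chr10:76575398-76575697, plus strand: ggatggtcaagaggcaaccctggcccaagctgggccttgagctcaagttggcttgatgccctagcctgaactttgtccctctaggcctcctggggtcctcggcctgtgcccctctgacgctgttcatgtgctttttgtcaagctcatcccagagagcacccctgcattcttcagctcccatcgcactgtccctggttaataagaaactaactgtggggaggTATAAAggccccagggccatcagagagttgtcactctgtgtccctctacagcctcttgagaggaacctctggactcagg
Mthfd2 promoter, chr6:83317555-83317854, minus strand: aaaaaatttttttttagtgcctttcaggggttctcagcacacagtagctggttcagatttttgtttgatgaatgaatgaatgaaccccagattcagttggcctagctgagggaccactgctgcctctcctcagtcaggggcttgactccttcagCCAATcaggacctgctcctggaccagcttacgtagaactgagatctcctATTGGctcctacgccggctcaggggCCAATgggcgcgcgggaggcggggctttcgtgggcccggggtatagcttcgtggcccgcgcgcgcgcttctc

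The third kind is shared sequence, since the library kit does not keep strand and reads of a gene cannot be told from reads of an antisense neighbour. Of the 50-base windows of a gene's transcripts, 10% also lay in another gene for Aldh1l1 (chr6:90550768-90599171), 5.03% for Dmgdh (chr13:93674436-93752823), 4.74% for Sardh (chr2:27188393-27248332) and 3.37% for Shmt1 (chr11:60788897-60811265). The sharers were mainly antisense: Gm15756 for Aldh1l1, AW495222 for Dmgdh, Sardhos for Sardh and Smcr8 for Shmt1. The share was 1.25% for Shmt2 (chr10:127517123-127522444), 0.185% for Ftcd (chr10:76575648-76590338), and 0 for Pipox (chr11:77880614-77893872), Mthfd1 (chr12:76254406-76319820) and Mthfd2 (chr6:83305704-83326011). All coordinates are those of the RefSeq gene on GRCm38.

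Libraries held 12185333 to 19689037 counts per mouse. The table that compares the BDL groups holds 3 mice of each, since mouse 3 given miR-Ctrl and mouse 2 given anti-miR-873-5p, left out there by the authors, are present only in the tables against no BDL. Values per mouse below are CPM, counts scaled by library total, on a scale common to all 13 mice (TMM, which sets the bulk of genes equal), and are called normalized counts. Fold changes and adjusted p-values come from edgeR's quasi-likelihood test on the table of each comparison, with Benjamini-Hochberg adjustment over all genes tested and a threshold of 0.05. The 2 comparisons with no BDL share the same no BDL mice and are not independent of each other.

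In miR-Ctrl BDL, 8 of the 9 transcripts fell relative to the bulk of genes, by 1.42-fold for Shmt2 to 2.95-fold for Sardh, where 16.6% of the 13072 genes tested were called lower and 35.7% were called in either direction. The median log2 fold change was -1.0 over the members and -0.011 over all genes tested. Scaling by library size alone left Sardh and Shmt1 called lower, called Mthfd2 higher, and turned the sign of Shmt2 to 0.28 and of Aldh1l1 to 0.19. The 20 most abundant genes of a library took 34.6% to 50.2% of the counts in no BDL mice and 24.8% to 30.2% in BDL mice, and the part of this in the shift between scalings was not tested. With the inhibitor, anti-miR-873-5p, 4 of the 9, Sardh, Pipox, Shmt1 and Mthfd1, fell under TMM scaling, with a background of 8.44% called lower and 21.5% called in all, and under library size scaling none was called lower and the values of Dmgdh, Shmt2, Mthfd1, Aldh1l1 and Ftcd turned positive. Between the BDL groups no member was called.

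**Figure D1:**
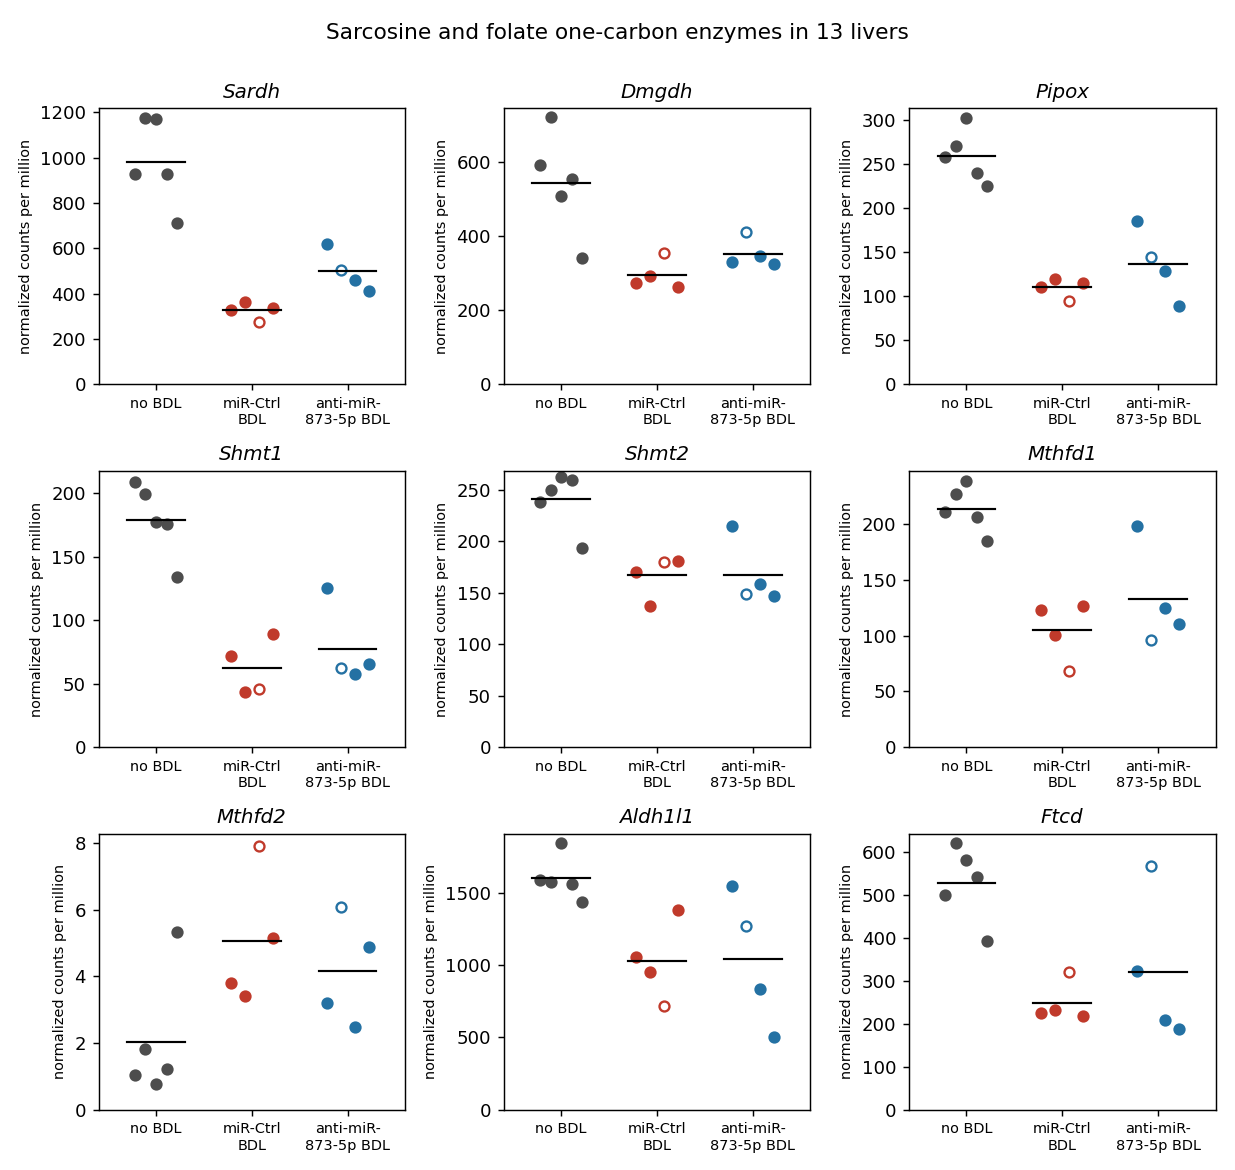
Normalized counts, in CPM (vertical axis, 1 panel per gene) of the 9 enzymes in each mouse, by group (no BDL, then miR-Ctrl, then anti-miR-873-5p). Circles are mice, open circles are the 2 BDL mice left out of the table that compares the BDL groups, and black bars are group means. Sardh lies at 712 to 1173 in no BDL and at 276 to 363 in miR-Ctrl BDL.

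Sardh, the enzyme that turns sarcosine into glycine, had 927, 1173, 1169, 930 and 712 normalized counts in no BDL mice 1 to 5. It had 330, 363, 276 and 339 in miR-Ctrl BDL mice 1 to 4, and 619, 506, 460 and 410 in anti-miR-873-5p BDL mice 1 to 4. Every BDL mouse was below every no BDL mouse, and every anti-miR-873-5p mouse was above every miR-Ctrl mouse. In log2 units Sardh fell by 1.56 under miR-Ctrl (SE 0.18, edgeR adjusted p = 0.000359) and, with the inhibitor, by 0.95 (SE 0.21, edgeR adjusted p = 0.0120). Both calls were kept in each fit that left out 1 mouse.

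Pipox, the peroxisomal oxidase that acts on sarcosine and pipecolate, had 259, 271, 303, 240 and 226 normalized counts in no BDL mice. It had 111, 120, 94.5 and 116 in miR-Ctrl BDL, and 185, 144, 129 and 88.7 in anti-miR-873-5p BDL. All 8 ligated mice were below the lowest no BDL value, and the BDL groups overlapped. The log2 fold change was -1.21 in miR-Ctrl BDL (SE 0.13, edgeR adjusted p = 0.000214) and, with the inhibitor, -0.90 (SE 0.20, edgeR adjusted p = 0.0142).

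Dmgdh, which makes sarcosine from dimethylglycine, had 592, 723, 509, 556 and 340 normalized counts in no BDL mice. It had 275, 293, 354 and 263 in miR-Ctrl BDL, and 329, 411, 346 and 325 in anti-miR-873-5p BDL. MiR-Ctrl mouse 3 and, among mice given the inhibitor, mice 2 and 3 lay above no BDL mouse 5, the lowest of its group. Dmgdh fell by 0.86 in log2 units in miR-Ctrl BDL (SE 0.21, edgeR adjusted p = 0.0101), and had a log2 fold change of -0.60 with the inhibitor (SE 0.21, edgeR adjusted p = 0.0664). That value was called without no BDL mouse 5 (edgeR adjusted p = 0.0155) and without anti-miR-873-5p mouse 2 (edgeR adjusted p = 0.0434).

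Shmt1 and Shmt2, the cytosolic and mitochondrial serine hydroxymethyltransferases, move a carbon between serine and folate. Shmt1 had 209, 200, 177, 176 and 134 normalized counts in no BDL, 71.7, 43.7, 46.0 and 89.3 in miR-Ctrl BDL, and 125, 62.2, 57.8 and 65.3 in anti-miR-873-5p BDL. All BDL values were below all no BDL values, with anti-miR-873-5p mouse 1 nearest to them. Shmt1 fell by 1.49 in log2 units in miR-Ctrl BDL (SE 0.23, edgeR adjusted p = 0.00131) and, with the inhibitor, by 1.18 (SE 0.25, edgeR adjusted p = 0.0108).

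For Shmt2 the no BDL mice had 238, 250, 262, 260 and 193 normalized counts, the miR-Ctrl BDL mice 170, 137, 180 and 181, and those given anti-miR-873-5p 214, 149, 158 and 147. The miR-Ctrl mice lay below all no BDL mice, while anti-miR-873-5p mouse 1 lay above no BDL mouse 5. The log2 fold change was -0.50 in both comparisons, called in miR-Ctrl BDL (SE 0.13, edgeR adjusted p = 0.0140) and not in anti-miR-873-5p BDL (SE 0.16, edgeR adjusted p = 0.0506). The second became a call without no BDL mouse 5 (edgeR adjusted p = 0.0330) or anti-miR-873-5p mouse 1 (edgeR adjusted p = 0.0121).

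Mthfd1, the cytosolic trifunctional enzyme that interconverts methylene, methenyl and formyl folates, had 211, 228, 239, 207 and 185 normalized counts in no BDL mice. The miR-Ctrl BDL mice had 123, 101, 68.4 and 127, and those given anti-miR-873-5p 199, 96.4, 125 and 110. Only anti-miR-873-5p mouse 1 entered the no BDL range. In log2 units Mthfd1 fell by 1.0 in miR-Ctrl BDL (SE 0.18, edgeR adjusted p = 0.00287) and, with the inhibitor, by 0.66 (SE 0.21, edgeR adjusted p = 0.0493). The second call was kept in 1 of 9 fits that left out 1 mouse, the one without anti-miR-873-5p mouse 1.

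Mthfd2, the mitochondrial dehydrogenase and cyclohydrolase known for its low level in adult tissues, was the scarcest member. It had 1.04, 1.81, 0.773, 1.23 and 5.33 normalized counts in no BDL mice, 3.80, 3.40, 7.92 and 5.16 in miR-Ctrl BDL, and 3.19, 6.07, 2.48 and 4.87 in anti-miR-873-5p BDL. These rest on 9 to 99 reads per mouse. No BDL mouse 5 was within the BDL ranges, and the other no BDL mice were below every BDL mouse. The log2 fold change was 1.31 in miR-Ctrl BDL (SE 0.53, 95% interval 0.14 to 2.48, edgeR adjusted p = 0.0783) and, with the inhibitor, 1.03 (SE 0.53, edgeR adjusted p = 0.193). Without no BDL mouse 5 the values were 2.07 (edgeR adjusted p = 0.00208) and 1.79 (edgeR adjusted p = 0.00932).

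Aldh1l1, which releases carbon as carbon dioxide from formyl folate, had 1592, 1572, 1842, 1559 and 1435 normalized counts in no BDL mice. It had 1056, 951, 718 and 1384 in miR-Ctrl BDL, and 1550, 1273, 833 and 506 in anti-miR-873-5p BDL. The miR-Ctrl mice were below all no BDL mice, and anti-miR-873-5p mouse 1 was not. Aldh1l1 fell by 0.61 in log2 units in miR-Ctrl BDL (SE 0.20, edgeR adjusted p = 0.0356), a call kept in 3 of 9 fits that left out 1 mouse (those without no BDL mouse 5, miR-Ctrl mouse 3 or miR-Ctrl mouse 4), and had -0.60 with the inhibitor (SE 0.30, edgeR adjusted p = 0.176). Without mouse 1 of the inhibitor group the latter was called (edgeR adjusted p = 0.0496), and in the other 6 fits for miR-Ctrl BDL the edgeR adjusted p was 0.0621 to 0.0869.

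Ftcd, which passes the formimino group of histidine breakdown to folate, had 499, 621, 581, 542 and 392 normalized counts in no BDL mice. The miR-Ctrl BDL mice had 226, 232, 319 and 217, and those given anti-miR-873-5p 322, 566, 209 and 189. Anti-miR-873-5p mouse 2 lay inside the no BDL range, and every other BDL mouse lay below it. Ftcd fell by 1.06 in log2 units in miR-Ctrl BDL (SE 0.17, edgeR adjusted p = 0.00158) and had -0.70 with the inhibitor (SE 0.31, edgeR adjusted p = 0.134). Without mouse 2 that value was -1.11 (edgeR adjusted p = 0.00730), with 13.4% of all genes then called lower.

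Counted by mice, 7 members had every miR-Ctrl BDL mouse below every no BDL mouse, against 15.5% of 12375 genes. The exceptions were Dmgdh and Mthfd2. In anti-miR-873-5p BDL there were 3 such members, Sardh, Pipox and Shmt1, against 9% of 12393 genes. Both mice left out of the table of BDL groups had the highest Dmgdh, Ftcd and Mthfd2 of their groups.

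**Figure D2:**
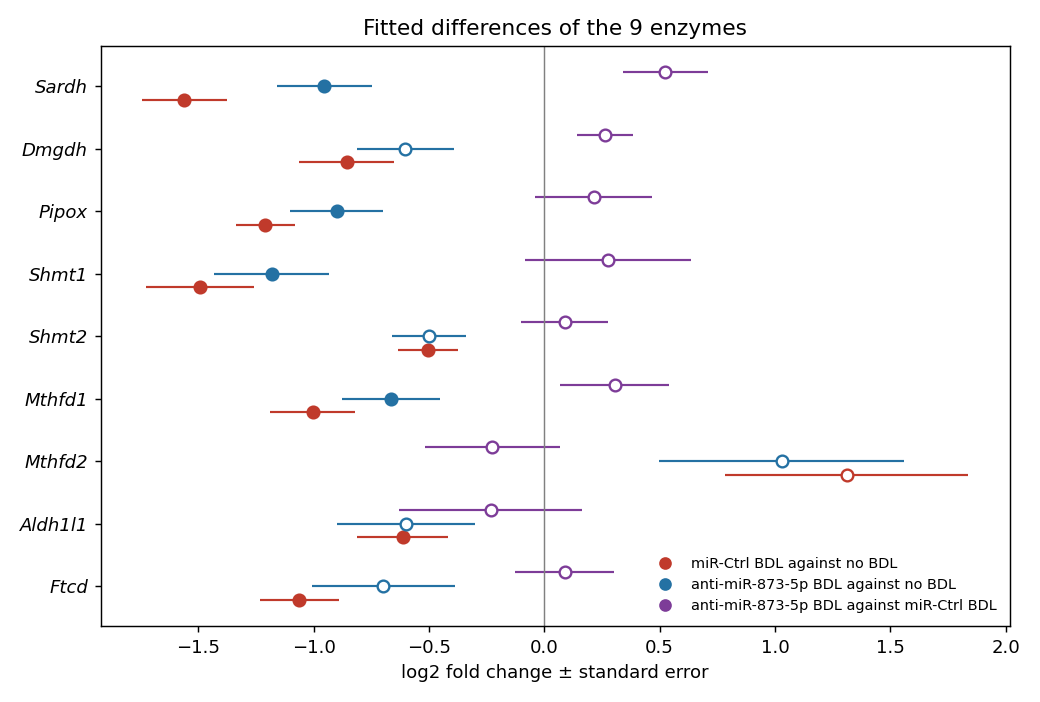
Log2 fold changes of the 9 enzymes (horizontal axis) in the 3 comparisons under TMM scaling, with SE bars. Filled points passed an edgeR adjusted p of 0.05 and open points did not. Against no BDL, 8 filled points lie below 0 in miR-Ctrl BDL and 4 in anti-miR-873-5p BDL, signs that turn for Shmt2, Aldh1l1 and others under library size scaling.

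The direct comparison of the BDL groups, which asks what the inhibitor changed, gave no call among 13746 genes by edgeR, with 863 genes (6.28%) at an unadjusted p under 0.05 and 31 genes (0.253%) called by DESeq2, none of them a member. Sardh had the largest value of the members, a log2 fold change of 0.53 (SE 0.18, 95% interval 0.092 to 0.96, edgeR adjusted p = 0.757). Sardh and Dmgdh were higher in each of 3 anti-miR-873-5p mice than in each of 3 miR-Ctrl mice, as were 6.86% of all genes. With all 4 mice of each group this held for Sardh and for 1.65% of all genes.

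For the remaining members the 95% intervals of the log2 fold change between BDL groups spanned 0. They ran from -0.020 to 0.55 for Dmgdh, from -0.38 to 0.81 for Pipox, from -0.57 to 1.12 for Shmt1 and from -0.36 to 0.53 for Shmt2. For the carriers they ran from -0.25 to 0.86 for Mthfd1, from -0.92 to 0.47 for Mthfd2, from -1.17 to 0.70 for Aldh1l1 and from -0.42 to 0.60 for Ftcd. Such widths do not show that the groups were alike. Without mouse 1 of the inhibitor group, Pipox turned to -0.096, Shmt1 to -0.16, Shmt2 to -0.10 and Ftcd to -0.19.

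The choice of scaling moved all of these values. Under library size alone the median of all genes shifted to 0.79 in miR-Ctrl BDL and 0.82 in anti-miR-873-5p BDL, with 71.6% of genes called higher and 2.1% lower in the first, and 76.6% and 0.998% in the second. Under TMM the split was 19.1% higher and 16.6% lower, and 13.1% and 8.44%. In every scaling tried, 8 of 9 members lay below the median of all genes in both comparisons, and Mthfd2 lay above it. A change of scaling moves all genes by nearly the same amount, so the side of the median was nearly fixed in advance. By definition, as many genes lie below the median as above it. Under library size, Sardh was at -0.76 (edgeR adjusted p = 0.0140) and Shmt1 at -0.68 (edgeR adjusted p = 0.0266) in miR-Ctrl BDL, and Mthfd2 at 2.10 (edgeR adjusted p = 0.00306).

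**Figure D3:**
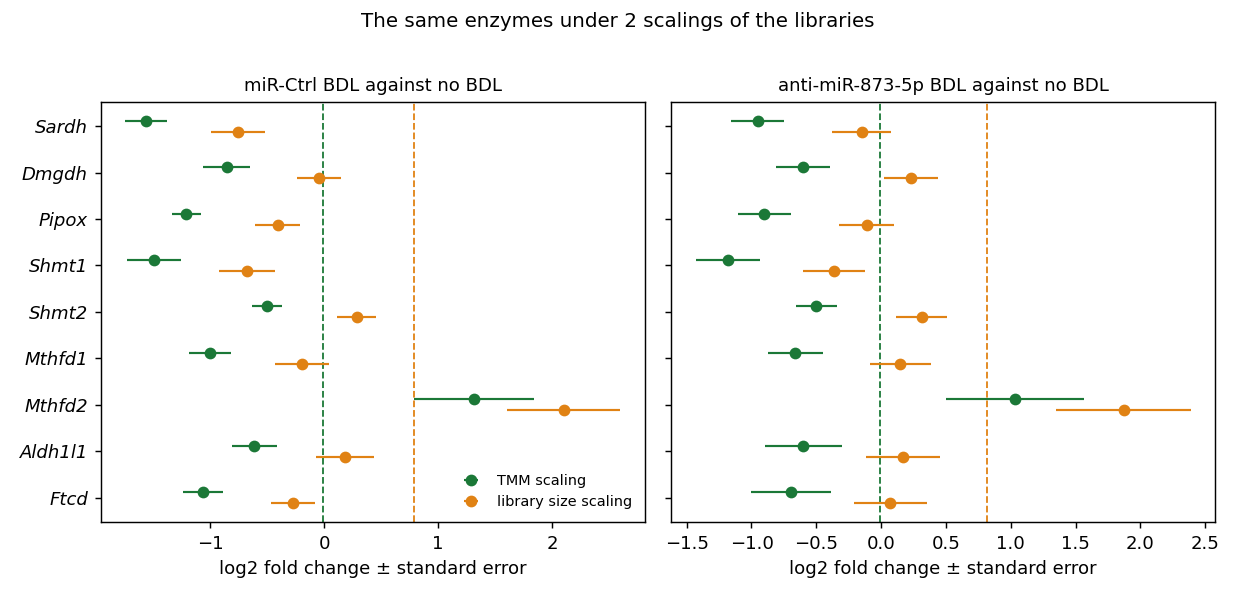
Log2 fold change against no BDL (horizontal axis) of each enzyme under TMM and library size scaling, for both BDL groups. Dashed lines mark the median of all genes under each scaling. Under library size scaling the line moves to 0.79 and 0.82, and the enzymes move with it. That 8 of 9 stay on its lower side is thus no test of the scaling.

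Per kilobase of exon, the order of levels in no BDL mice ran from Aldh1l1 at 354 ± 32.9 (SD, n = 5) normalized counts per kilobase to Mthfd2 at 0.584 ± 0.539. Sardh at 181 ± 35.7, Ftcd at 165 ± 27.5 and Dmgdh at 159 ± 40.7 followed Aldh1l1, and their ranges overlapped. Pipox was at 105 ± 12.1, Shmt2 at 77.4 ± 9.05, Mthfd1 at 48.2 ± 4.67 and Shmt1 at 46.2 ± 7.48, the last pair overlapping. In miR-Ctrl BDL Sardh stood at 60.2 ± 6.74 (SD, n = 4), behind Dmgdh at 86.7 ± 11.9 and Ftcd at 77.9 ± 14.9. In anti-miR-873-5p BDL these were 91.8 ± 16.4, 103 ± 11.6 and 101 ± 54.3 (SD, n = 4).

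Ratios within a library do not depend on scaling, and the pairs here were chosen after their values were seen, so they carry no test. The per-kilobase ratio of mitochondrial Shmt2 to cytosolic Shmt1 was 1.42, 1.56, 1.84, 1.84 and 1.80 in no BDL mice, 2.96, 3.91, 4.89 and 2.53 in miR-Ctrl BDL, and 2.14, 2.98, 3.43 and 2.81 in anti-miR-873-5p BDL. Every BDL mouse was above every no BDL mouse. Sardh to Dmgdh was 0.984, 1.02, 1.44, 1.05 and 1.31 in no BDL, 0.756, 0.779, 0.490 and 0.812 in miR-Ctrl BDL, and 1.18, 0.775, 0.837 and 0.794 in anti-miR-873-5p BDL. Here the miR-Ctrl mice were below all no BDL mice and the anti-miR-873-5p mice overlapped them. Sardh to Gnmt was 0.144 ± 0.0206 (SD, n = 5), 0.138 ± 0.0172 (SD, n = 4) and 0.176 ± 0.094 (SD, n = 4) in the same order, with overlapping ranges.

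**Figure D4:**
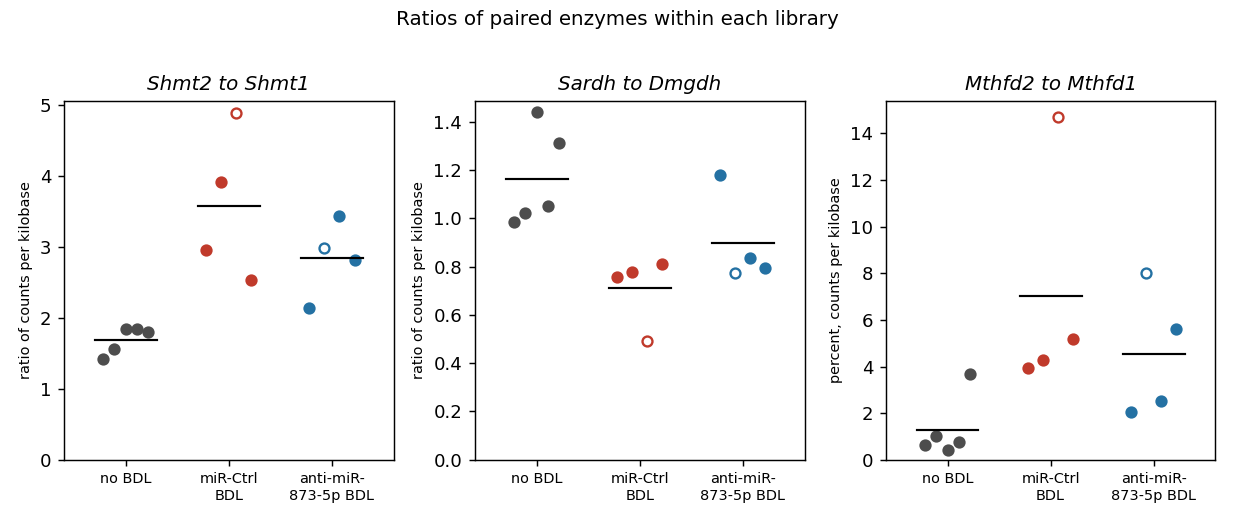
Ratios of per-kilobase levels within each library (vertical axes), by group. Circles are mice, open circles are the 2 mice left out of the table of BDL groups, and black bars are means. Shmt2 to Shmt1 is 1.42 to 1.84 in no BDL mice and 2.14 or more in BDL mice.

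Several of these enzymes, Sardh, Dmgdh and Ftcd among them, are known as abundant in hepatocytes, while Shmt2, Mthfd1 and Mthfd2 are made in many cell types. In whole liver fewer cells of a type and less RNA per cell cannot be told apart. Under TMM scaling in miR-Ctrl BDL, 4 of 8 hepatocyte markers were called lower and 1 higher, against 16.6% and 19.1% of all genes. Alb was at -0.80 (edgeR adjusted p = 0.0931). Of the markers of other cells, 6 of 7 for cholangiocytes, 6 of 6 tested for leukocytes, 5 of 7 for mesenchymal cells and 5 of 6 for dividing cells were called higher. With the inhibitor 2 of 8 hepatocyte markers were called lower, and 6 of 7 cholangiocyte, 2 of 6 leukocyte, 5 of 7 mesenchymal and 4 of 5 dividing-cell markers tested were called higher. The shares of all genes there were 8.44% lower and 13.1% higher. Under library size scaling 2 hepatocyte markers were called higher and 1 lower in miR-Ctrl BDL, against 71.6% and 2.1% of all genes. With the inhibitor 3 were called higher and 1 lower, against 76.6% and 0.998%. The markers of other cells called under that scaling were all higher. Sums of normalized counts covered 7 hepatocyte, 6 cholangiocyte and 6 mesenchymal markers. They left out Cps1, Spp1 and Des, whose deposited counts for a mouse were not identical throughout. Spp1 was the most abundant cholangiocyte marker, with up to 27836 reads in miR-Ctrl BDL and no BDL mice. The sums were 28.4 to 38.1 in no BDL, 63.1 to 104 in miR-Ctrl BDL and 57.5 to 126 with the inhibitor for cholangiocytes. For mesenchymal cells they were 41.9 to 81.6, 189 to 642 and 127 to 805. Over 7 leukocyte markers they were 34.1 to 164, 171 to 368 and 102 to 343. Over 6 dividing-cell markers they were 8.29 to 16.4, 23.1 to 122 and 9.41 to 63.4. The leukocyte and dividing-cell sums with the inhibitor overlapped those of no BDL. Summed hepatocyte markers were 115000 to 129000 in no BDL, 79300 to 116000 in miR-Ctrl BDL and 71600 to 119000 in anti-miR-873-5p BDL. Alb and Tf were the largest parts of this sum and moved in opposite directions. Their means were 83200 and 17900 in no BDL, 47000 and 41500 in miR-Ctrl BDL, and 46600 and 32100 with the inhibitor. The means of the other markers summed were lower in both BDL groups, as for Ttr, at 6290, 1400 and 1940. No marker was at 0 in every mouse. As a ratio to Alb, 1 member, Shmt1, was below every no BDL mouse in miR-Ctrl BDL, against 1.27% of all genes, and 1, Mthfd2, was above, against 48.3%. The other 7 overlapped no BDL. With the inhibitor all 9 overlapped, where 0.492% of all genes were below and 45.9% above. The part of cell composition in the results was not tested.

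Around the members, 40 genes of the same pathways were counted, of which 38 were tested. In miR-Ctrl BDL 5 rose and 13 fell, and in anti-miR-873-5p BDL 3 rose and 7 fell, while none was called between the BDL groups. Of all genes tested, 19.1% were called higher and 16.6% lower in the first, and 13.1% and 8.44% in the second, and each list count below is to be read against these shares. The median log2 fold changes were -0.23, -0.12 and -0.026. Under library size scaling only Hal and Gnmt stayed lower, both in miR-Ctrl BDL, so the falls below are relative to the bulk of genes.

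Among suppliers of sarcosine and their electron acceptors 4 of 8 fell in miR-Ctrl BDL, including Gnmt at -1.49 (SE 0.19, edgeR adjusted p = 0.000546) and Etfa, a subunit of the flavoprotein that takes electrons from Sardh and Dmgdh, at -0.81 (SE 0.14, edgeR adjusted p = 0.00181). Gnmt had 1846, 1573, 1694, 1358 and 1137 normalized counts in no BDL, 453, 599, 458 and 623 in miR-Ctrl BDL, and 936, 1471, 563 and 302 in anti-miR-873-5p BDL. In the last group it overlapped no BDL through mouse 2 and was not called (-0.88, edgeR adjusted p = 0.135). Without that mouse it was called at -1.32 (edgeR adjusted p = 0.0196), with 13.4% of all genes then called lower. In the fit with all 4 mice Etfa was the 1 gene of the list that fell (-0.66, edgeR adjusted p = 0.0244).

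The glycine cleavage system, which takes a carbon from glycine, had 2 of 4 genes lower in each BDL group. Gcsh was at -0.70 (edgeR adjusted p = 0.00154) and Dld at -0.49 (edgeR adjusted p = 0.0146) in miR-Ctrl BDL, with Amt at -0.49 (edgeR adjusted p = 0.0617) and Gldc at -0.049 (edgeR adjusted p = 0.925). Of the histidine pathway that feeds Ftcd, 3 of 3 genes fell in miR-Ctrl BDL, Hal by 1.90 (edgeR adjusted p = 0.000732), Amdhd1 by 0.97 (edgeR adjusted p = 0.00139) and Uroc1 by 0.70 (edgeR adjusted p = 0.0168). With the inhibitor none of the 3 was called, with Hal at -1.08 (edgeR adjusted p = 0.0931). Without mouse 2 of that group, left out of the table of BDL groups, all 3 were called lower, Hal at -1.64 (edgeR adjusted p = 0.00813), Amdhd1 at -0.75 (edgeR adjusted p = 0.0321) and Uroc1 at -0.80 (edgeR adjusted p = 0.0242). In that fit 13.4% of all genes were called lower.

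Serine synthesis and use had members in both directions. Phgdh, the first enzyme of serine synthesis, rose by 3.25 in log2 units (SE 0.49, edgeR adjusted p = 0.00104) and Psat1, the next, by 3.37 (SE 0.87, edgeR adjusted p = 0.0140) in miR-Ctrl BDL. Phgdh rested on 0, 1, 4, 1 and 4 reads in no BDL, 26, 26, 20 and 32 in miR-Ctrl BDL, and 15, 31, 24 and 48 in anti-miR-873-5p BDL. Every BDL mouse was above every no BDL mouse for Phgdh. Psat1 had 2.29, 2.68, 24.2 and 2.16 normalized counts in the miR-Ctrl BDL mice, and without mouse 3 its log2 fold change was 1.69 (edgeR adjusted p = 0.0131). Sdsl, a serine dehydratase-like gene, rose (1.02, edgeR adjusted p = 0.00754), Srr fell (-0.52, edgeR adjusted p = 0.00741), and Psph (0.53, edgeR adjusted p = 0.0695) and Sds (-0.23, edgeR adjusted p = 0.714) were not called. The same 4 genes were called in the same directions in anti-miR-873-5p BDL, with Phgdh at 3.34 (edgeR adjusted p = 0.00448) and Psat1 at 3.03 (edgeR adjusted p = 0.0234). In those mice Psat1 had 1.63, 16.4, 1.57 and 4.92 normalized counts and Sdsl 11.2, 54.3, 21.5 and 17.6, with mouse 2 highest for both and mouse 1 inside the no BDL range of Sdsl, 9.86 to 12.6. Without mouse 2 the log2 fold changes were 1.89 for Psat1 (edgeR adjusted p = 0.0322) and, from 1.2 for Sdsl (edgeR adjusted p = 0.0453), 0.57 (edgeR adjusted p = 0.0479). Among fits that left out 1 mouse, the call was kept in 6 of 9 for Psat1, losing it without no BDL mouse 1, 2 or 3, in 2 of 9 for Sdsl, those without mouse 1 or 2 of the inhibitor group, in 5 of 9 for Srr, losing it without no BDL mouse 2 or 4 or inhibitor mouse 3 or 4, and in 9 of 9 for Phgdh.

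In other folate interconversion 1 of 8 tested genes was called in miR-Ctrl BDL, the methionine synthase Mtr (0.62, edgeR adjusted p = 0.0414, kept in 1 of 9 fits that left out 1 mouse, the one without miR-Ctrl mouse 3), and none in anti-miR-873-5p BDL. Of folate transport and polyglutamation, the synthase Fpgs was at -0.78 (edgeR adjusted p = 0.00667) and the transporter Slc46a1 at -0.68 (edgeR adjusted p = 0.00144) in miR-Ctrl BDL, both also lower in anti-miR-873-5p BDL, and the hydrolase Ggh at 0.49 (edgeR adjusted p = 0.0144) in miR-Ctrl BDL. Of 3 nucleotide synthesis genes, Tyms fell by 0.48 in miR-Ctrl BDL (edgeR adjusted p = 0.00258). The calls named for miR-Ctrl BDL in these lists, other than Mtr, were kept in each of the 9 fits that left out 1 mouse, and Amt (without no BDL mouse 3 or 4) and Psph (without no BDL mouse 5 or miR-Ctrl mouse 2) gained one. With the inhibitor, the calls of Etfa and Tyms were kept in 4 of 9 such fits each. That of Dld was kept in 3, those of Fpgs and Slc46a1 in 2 each and that of Gcsh in 9. The losses came on leaving out a no BDL mouse, mouse 3 or 4 of the inhibitor group or, for Fpgs, mouse 1 of that group.

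**Figure D5:**
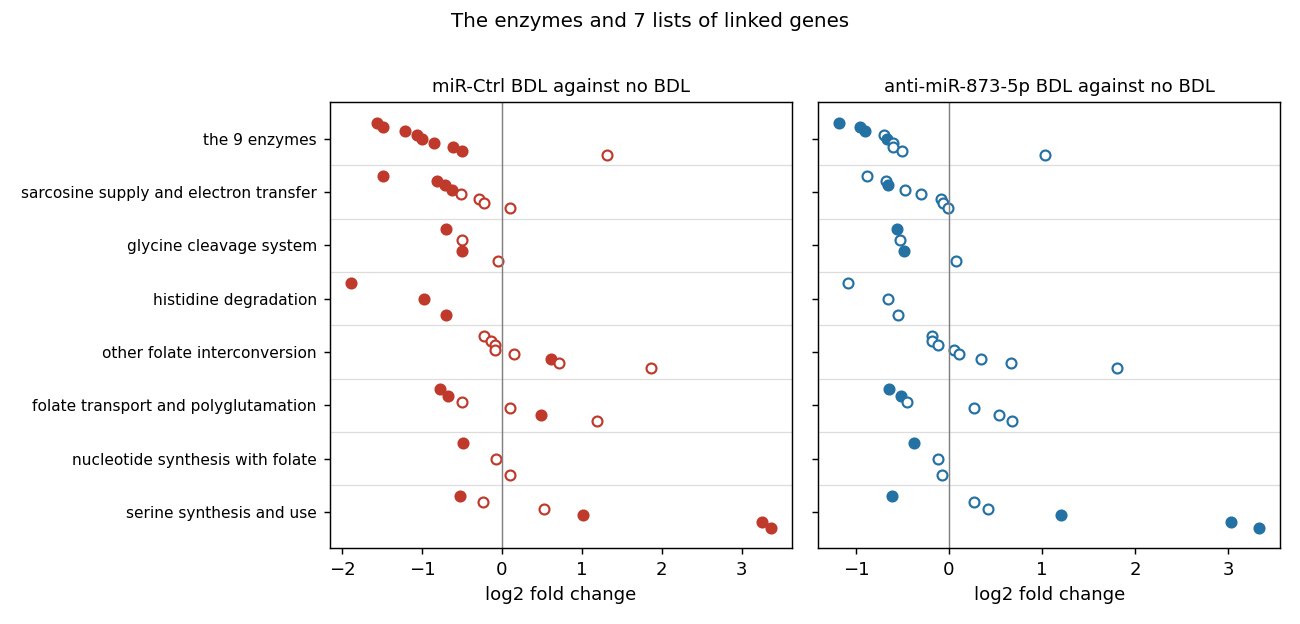
Log2 fold changes against no BDL under TMM scaling of the pathway genes, by list, for both BDL groups. Points are genes, filled where they passed an edgeR adjusted p of 0.05 and open where they did not. Histidine degradation has 3 filled points below 0 in miR-Ctrl BDL and 0 in anti-miR-873-5p BDL. In the latter all 3 pass without mouse 2, a fit with 13.4% of all genes called lower. Under library size scaling Hal alone of these stays called, in miR-Ctrl BDL.

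Among the 8 BDL mice, the genes most like Sardh in log2 normalized counts were Clcn2 (Pearson r = 0.979), Hcfc1r1 (r = 0.973) and Tprkb (r = 0.967), out of 12810 ranked. Those most like Mthfd2 were Nop2 (r = 0.962), Bud31 (r = 0.957) and Lyar (r = 0.956). Of the member pairs, the highest were Shmt1 and Mthfd1 at r = 0.861, Sardh and Pipox at r = 0.807 and Pipox and Aldh1l1 at r = 0.807. Several pairs moved without the 2 mice left out of the table of BDL groups, in both directions: Dmgdh and Ftcd from 0.724 to 0.116, Dmgdh and Mthfd2 from 0.273 to -0.618, Mthfd1 and Ftcd from -0.185 to 0.840, and Shmt1 and Shmt2 from 0.733 to 0.959. These are descriptions over mice that share their scaling and both BDL groups.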

How the data were processed

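Liver RNA of 13 mice was sequenced by the study with an unstranded TruSeq kit and 50 nt single reads. The values are raw gene counts that the authors deposited as 3 tables, 1 per comparison. Per the submitters' processing notes CASAVA 1.8.2, FastQC, Trim Galore, TopHat, DESeq2 and the mm10 build were used. The counting program and annotation are not given in the sources used here. Each table was tested with edgeR 4.0.16 (R 4.3.3) by filterByExpr, TMM scaling and its quasi-likelihood test. P-values were adjusted by the method of Benjamini-Hochberg, and 0.05 was the threshold. The authors left 1 mouse of each BDL group out of the table of BDL groups. Values per mouse come from 22246 genes with identical counts in the tables. Samples were grouped by their labels, and 0 columns of values were left out. P-values measure the spread between mice. Alternatives were library size and DESeq2 size factor scaling, DESeq2 1.42.0, filters on low counts, a fit of all groups, a replicate block, an adjusted p of 0.1 and leaving out each mouse. The fits were tested on simulated data. All members were named, with Gnmt, the glycine cleavage, histidine and serine genes, and the 2 largest called changes of each other list. The members and lists were chosen with earlier results of these data known. Mouse numbers did not pair the samples.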

Additional observations from a re-analysis of the deposited data

Results flagged for a closer look

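In 3 of 27 sets of 1 enzyme in 1 group, a mouse lay farther from the others than Dixon's 95% critical value allows, where chance flags about 1 in 20 groups. Anti-miR-873-5p BDL mouse 1 had 125 normalized counts of Shmt1, with the nearest mouse at 65.3. No BDL mouse 5 had 5.33 of Mthfd2, with the nearest at 1.81. MiR-Ctrl BDL mouse 3 had 319 of Ftcd, with the nearest at 232.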

How the results depend on the processing

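Of the planned refits of single members, 356 kept direction and side of the threshold, 19 gained a call, 25 lost one and 14 changed sign. Library size scaling moved the counts of calls most: against no BDL, 3 members in miR-Ctrl BDL and 1 with the inhibitor, 24 pathway genes in the latter, and 9635 and 10194 genes in all. All of those 24 pathway genes were called higher. Of all genes, 9360 were called higher and 275 lower in miR-Ctrl BDL, and 10063 and 131 with the inhibitor. This scaling reversed Shmt2 (0.28) and Aldh1l1 (0.19) in miR-Ctrl BDL, and Dmgdh (0.23), Shmt2 (0.31), Mthfd1 (0.15), Aldh1l1 (0.17) and Ftcd (0.072) with the inhibitor. Between the BDL groups DESeq2 called 31 genes, and 4 with all 4 mice of each group, an alternative chosen after seeing the data. Aldh1l1 there reversed to 0.024 with all 4 mice, 0.018 with DESeq2 on them and 0.076 without anti-miR-873-5p mouse 4. Shmt2 reversed to -0.0057 with DESeq2 on all 4 mice, -0.022 without miR-Ctrl mouse 2 and -0.10 without anti-miR-873-5p mouse 1, which also reversed Pipox (-0.096), Shmt1 (-0.16) and Ftcd (-0.19). The causes were not tested. Leaving out 1 mouse gave 7 to 9 called members in miR-Ctrl BDL, 3 to 6 with the inhibitor and 0 to 0 between BDL groups. Between the BDL groups it gave log2 ranges of -0.096 to 0.44 for Pipox, -0.16 to 0.51 for Shmt1, -0.10 to 0.20 for Shmt2, -0.76 to 0.076 for Aldh1l1 and -0.19 to 0.24 for Ftcd. It gave 17 to 22, 2 to 17 and 0 to 0 pathway genes. In all, 3775 to 5710, 1261 to 4317 and 0 to 1 genes were called, the 1261 without anti-miR-873-5p mouse 3 and the 4317 without mouse 2. With the replicate block, 8, 5 and 0 members and 4063, 2195 and 0 genes were called, although the numbers did not pair the mice and no BDL mouse 5 had no partner. Depth limits Mthfd2, at 9 to 99 reads.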
